A study of Rattus norvegicus with 15 samples.

Results

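Enpp1 encodes ectonucleotide pyrophosphatase/phosphodiesterase 1, a membrane enzyme that splits extracellular ATP into AMP and inorganic pyrophosphate. It was followed here in the enamel organ of the rat incisor through the probes annotated to a RefSeq transcript of rat Enpp1. There was 1 such probe, A_43_P12841, annotated to the transcript NM_053535, of 38321 probes on the array, and it passed the filter on dim probes. The probe was printed 10 times on each array. The rule selects the probe by its transcript annotation; Enpp1 itself was taken up with earlier results of these data known. Enpp1 is thus 1 of 38 genes that could be named through the same annotation table, and the remaining probes were left under their own identifiers.

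Pyrophosphate binds to the surface of growing hydroxyapatite and holds back mineral deposition. Its extracellular level is set by Enpp1, which makes it, by Ankh, which carries ATP and pyrophosphate out of cells, and by the alkaline phosphatase Alpl, which hydrolyses it and frees phosphate. Loss of Enpp1 is known to cause ectopic calcification in mice and in people. In the continuously growing rodent incisor, the cervical loop holds the epithelial progenitors, secretory ameloblasts lay down a protein matrix with thin mineral ribbons, and maturation ameloblasts degrade that matrix and move calcium and phosphate while the crystals thicken.

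The study profiled total RNA of the enamel organ of 4 week old Wistar Hannover rats on 1-colour arrays labelled with Cy3. The groups were cervical loop, secretory-stage and maturation-stage enamel organ, with 5 arrays each, from 5 animals and 15 separate RNA samples. No group carried a treatment or a genetic change in the labels, so each stage served as the reference for the others. The labels gave no borders for the dissection of each stage and did not say which samples of different stages came from the same animal.

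The stage of each array was taken from its tissue label, which named the same stage as its source and its description on all 15 arrays. The sample titles named the other stage for 8 of the 15 arrays, namely secretory and maturation replicates 2 to 5. Each Enpp1 result is therefore also given with the stages as the titles name them. None of the marker genes listed for ameloblasts, progenitors, odontoblasts, bone, endothelium, blood, immune cells or stratum intermedium was among the genes named here, so the tissue labels could not be checked against markers. Each array held 41623 spots, of which between 67.4% and 78.9% were well above background.

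Enpp1 signal was highest in the maturation stage, intermediate in the cervical loop and lowest in the secretory stage. Before any scaling between arrays, the mean processed signal of the Enpp1 spots was 14335, 16679, 17934, 15749 and 13749 scanner units in maturation replicates 1 to 5. In the cervical loop it was 2021, 2060, 2520, 1657 and 3183 units. In the secretory stage it was 1164, 1057, 706, 887 and 699 units. No array of one stage overlapped with an array of another on this raw scale. The stage means were 15689 ± 1704 units in maturation, 2288 ± 587 in the cervical loop and 903 ± 208 in the secretory stage (SD, n = 5 arrays each).

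The separation also held for single spots. The lowest maturation spot read 13158 units and the highest cervical loop spot 3564. The lowest cervical loop spot read 1492 units and the highest secretory spot 1212. All 150 Enpp1 spots were well above background and 0 were saturated, so none of the values was a bound. The median signal of the spots was 33.4 to 50.5 times their local background on the secretory arrays, 76.5 to 136 times on the cervical loop arrays and 628 to 948 times on the maturation arrays. The spots of 1 array differed by a coefficient of variation of 2.03% to 7.36%, which covers technical spread within an array only. 1 spot, on the array of secretory replicate 4, was an outlier by the scanner software and was left out.

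**Figure D1:**
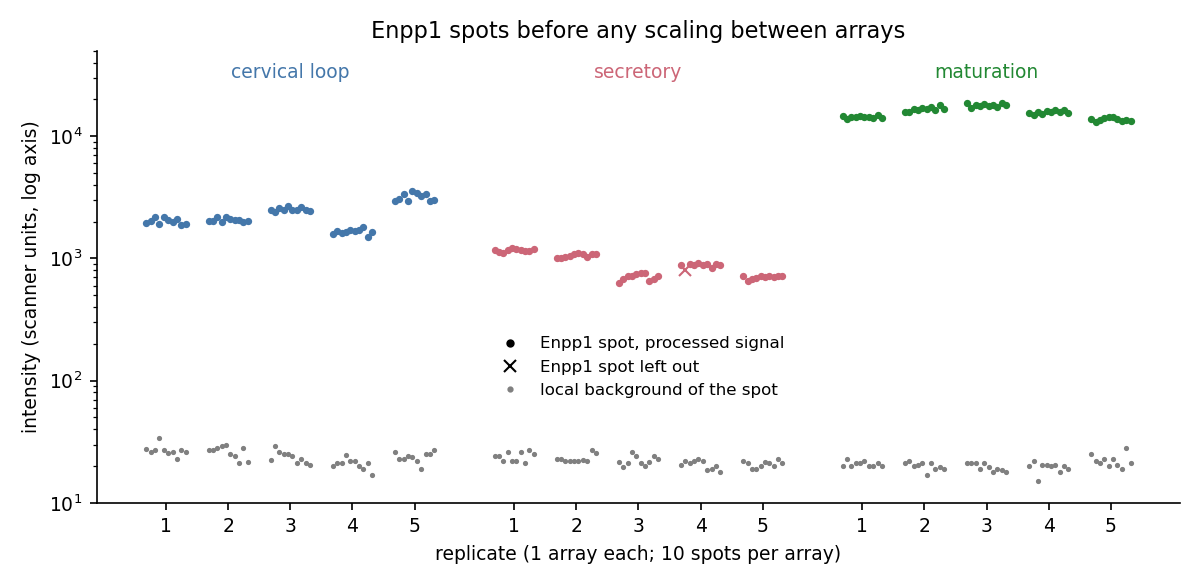
Processed signal of every Enpp1 spot (coloured points, log axis in scanner units) on the 15 arrays, with the local background of the same spots in grey and the spot left out as a cross. The maturation spots lie between 13158 and 18686 units, the cervical loop spots between 1492 and 3564 and the secretory spots used between 627 and 1212, all far above the local background.

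Arrays were then put on a common scale by subtracting each array's 75th percentile of log2 signal, so that a normalized log2 signal of 0 is the 75th percentile of that array. On this scale Enpp1 stood at 4.99, 5.08, 5.26, 4.97 and 4.59 in maturation replicates 1 to 5. It stood at 2.11, 2.31, 1.94, 2.07 and 2.43 in cervical loop replicates 1 to 5. It stood at 1.46, 1.45, 1.25, 1.27 and 0.95 in secretory replicates 1 to 5. The order of the stages was the same as on the raw scale and no pair of stages overlapped. The mean was 4.98 ± 0.25 in maturation, 2.17 ± 0.20 in the cervical loop and 1.28 ± 0.21 in the secretory stage (SD, n = 5). The smallest distance between neighbouring stages was 0.48 log2 units, from the highest secretory to the lowest cervical loop array.

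**Figure D2:**
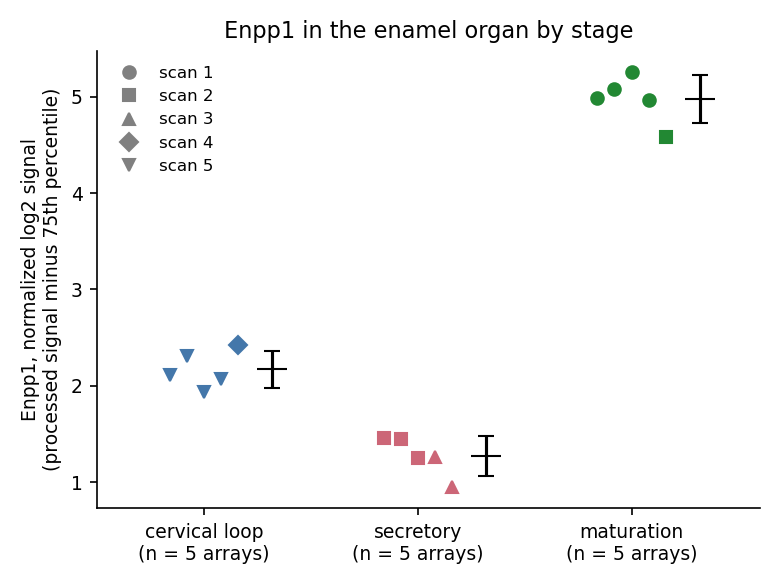
Normalized log2 signal of Enpp1 on each array (points, shaped by scan), with the mean and SD of each stage as a bar beside them (n = 5 arrays). Maturation arrays lie between 4.59 and 5.26, cervical loop arrays between 1.94 and 2.43 and secretory arrays between 0.95 and 1.46, with no overlap.

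The secretory and maturation stages frame the change from matrix deposition to mineral growth. Enpp1 was 13.0-fold higher in maturation than in secretory enamel organ (95% confidence interval 10.5 to 16.1-fold). On the log2 scale the difference was 3.70 (SE 0.15), with a Benjamini-Hochberg adjusted p of 5.42e-11 in limma's moderated test over 28864 features. In the same comparison 59.5% of all features were called at an adjusted p under 0.05. Of all features, 25.1% were called higher, 34.4% lower and 10.1% at least 2-fold higher. The median difference of all features was -0.12, and relative to that median Enpp1 differed by 3.82. The exact two-sided permutation test over arrays gave p = 0.00794, the smallest that 5 against 5 arrays allow, and 0.00794 after adjustment over the 3 stage comparisons. That test splits the arrays freely and leaves aside the pairing of same-numbered maturation and secretory arrays seen in their deviations. Within the 5 pairs Enpp1 was higher in maturation in 5 of 5, by 3.53 to 4.01, and an exact sign-flip permutation test, added after the data were seen, gave p = 0.0625, the smallest that 5 pairs allow, which cannot pass 0.05.

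The size of the difference stood near the upper end of the array. Among 24440 features that cleared the background criterion on each of the 10 arrays of these stages, 70 had a larger maturation minus secretory difference, or 0.286%. Among the 33 named genes measured on all of those arrays, Enpp1 included, 0 had a larger one. Gdnf, not well above background on some secretory arrays, is not in that number. Of 37 named genes tested, 24 were called higher in maturation and 2 lower, with 9 at least 2-fold higher, and their median difference was 0.45.

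Scans held the stages unequally. Maturation replicates 1 to 4 were read in scan 1 and gave 4.97 to 5.26. Scan 2 held maturation replicate 5, at 4.59, together with secretory replicates 1 to 3, at 1.25 to 1.46. Secretory replicates 4 and 5, at 1.27 and 0.95, were read in scan 3. Within scan 2, the only scan with both stages, the difference was 3.20 (limma, adjusted p = 0.00319), with 1 maturation array whose spread is assumed to be that of the others, so that this p carries no replication of the maturation stage. Between scans 1 and 3, a comparison added after the data were seen, it was 3.97. With scan as a fixed term, which takes its estimate from scan 2, Enpp1 differed by 3.20 (limma, adjusted p = 1.73e-05) and the number of features called went from 17161 to 8086.

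The comparison of secretory stage with cervical loop covers the step from progenitors to matrix-secreting cells. Enpp1 was 1.86-fold lower in the secretory stage (95% confidence interval 1.50 to 2.31-fold). The log2 difference was -0.90 (SE 0.15) with an adjusted p of 9.1e-05 in limma. Calls in this direction were common. Of all features 58.1% were called, 36.7% lower, 21.4% higher and 15.4% at least 2-fold lower. The median difference of all features was -0.19, and relative to it Enpp1 differed by -0.70. The exact permutation test gave p = 0.00794, both raw and adjusted over the 3 comparisons. Among 24660 features measured on all 10 arrays, 3375, or 13.7%, had a lower difference than Enpp1. Of the 37 named genes tested, 19 were called lower and 9 higher, and their median difference was -0.44.

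All cervical loop arrays were read on another day than the arrays of the other stages, in scans 4 and 5. Cervical loop replicate 5, alone in scan 4, had the highest value of its stage at 2.43, and the arrays of scan 5 gave 1.94 to 2.31. Scan day and cervical loop cannot be told apart in these data, which holds for both comparisons with the cervical loop. With scan as a random block the differences were -0.89 for secretory minus cervical loop and 2.77 for maturation minus cervical loop. That fit cannot separate scan from stage here, because no scan held cervical loop arrays together with another stage.

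Enpp1 was 6.99-fold higher in maturation than in the cervical loop (95% confidence interval 5.64 to 8.66-fold). The log2 difference was 2.80 (SE 0.15) with an adjusted p of 6.59e-10 in limma, and the exact permutation test gave p = 0.00794, raw and adjusted. In this comparison 63.2% of all features were called, 20.6% higher, 42.7% lower and 8.26% at least 2-fold higher. The median difference of all features was -0.28, and relative to it Enpp1 differed by 3.08. Among 25221 features measured on all 10 arrays, 265, or 1.05%, had a larger difference. Among 34 named genes measured on all of them, Enpp1 included, 3 did. Of the 37 named genes tested, 17 were called higher and 10 lower.

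The 3 comparisons share arrays and are not independent of each other. The samples were pieces of whole tissue, in which fewer cells of a type and less RNA per cell cannot be told apart. A change in Enpp1 signal is therefore a change in its share of the RNA of the dissected tissue.

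**Figure D3:**
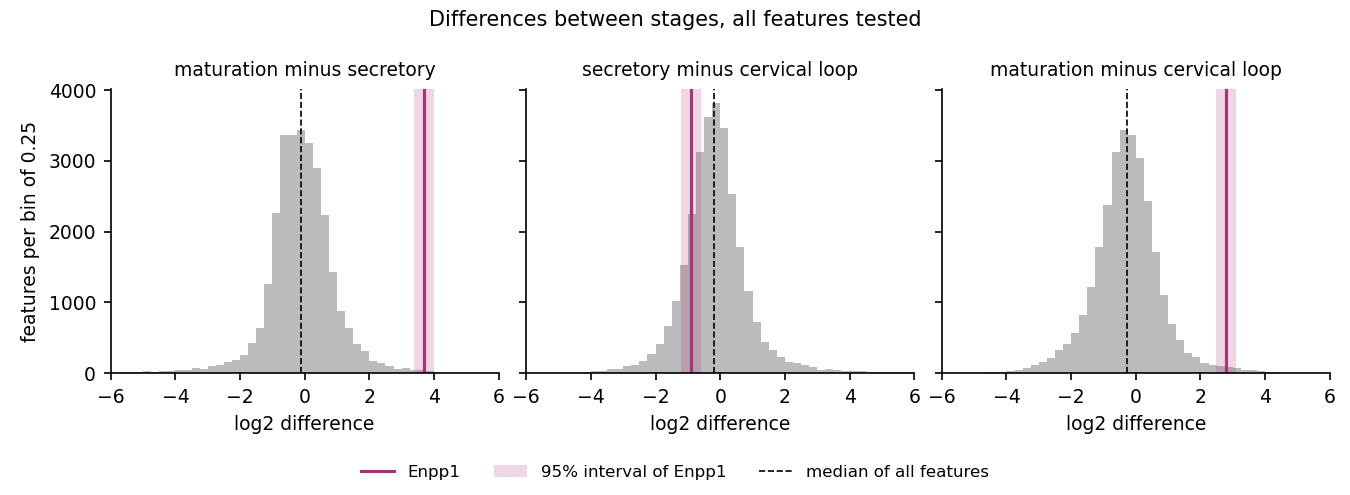
Number of features per bin of 0.25 log2 units for each stage comparison (grey, 28864 features), with the Enpp1 difference and its 95% interval in purple and the median of all features dashed. Enpp1 lies in the upper tail of both comparisons with the maturation stage, at 3.70 and 2.80, and within the body of the secretory minus cervical loop differences, at -0.90.

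The size of the Enpp1 differences moved with the scale put between arrays. The 75th percentile itself lay between 296.0 and 423.1 units on the secretory arrays, 395.2 and 657.5 on the cervical loop arrays and 451.7 and 572.9 on the maturation arrays. With 7 reference genes as the scale, the maturation minus secretory difference was 2.83, secretory minus cervical loop -0.49 and maturation minus cervical loop 2.35. With 2 E1A control probes as the scale they were 4.48, -1.40 and 3.08, and with no scaling, added after the data were seen, 4.14, -1.34 and 2.81. Relative to the median of all features, each of these scalings returned 3.82, -0.70 and 3.08, because they move every feature of an array by 1 amount. The control probes were dim, with mean signals of 1.15 to 47.4 units over the E1A set.

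Of the 7 reference genes, 5 were called between maturation and secretory tissue in the main setting. Ldha, a lactate dehydrogenase subunit, and Hprt1, a purine salvage enzyme, were higher in maturation than in secretory tissue by 2.20 each on the normalized log2 scale. The glycolytic kinase Pgk1 was higher by 1.57 and B2m, the light chain of class I histocompatibility molecules, by 0.53, while the ribosomal protein gene Rplp1 stood at -0.66. The cytoskeletal actin Actb, at 0.31 (limma, adjusted p = 0.0835), and the ribosomal protein gene Rpl13a, at -0.10 (limma, adjusted p = 0.559), did not pass the test. Over the 8 scaling and background settings, Hprt1, Ldha and Pgk1 kept their sign and call in this comparison. B2m, from -0.33 to 1.32, and Rplp1, from -1.52 to 0.13, changed sign with the setting, as did Actb and Rpl13a. One of these settings scales to the mean of the same 7 genes, so each gene is part of its own scale there. The share of called features that were higher in maturation than in secretory tissue was 42.2% with the 75th percentile and ran from 7.53% with the reference genes to 89.6% with the E1A probes. For secretory minus cervical loop it was 36.8%, with a range of 11.6% with the E1A probes to 68.3% with the reference genes. For maturation minus cervical loop it was 32.5%, with a range of 13.2% with the reference genes to 61.8% with each array's median. The direction and call of Enpp1 were the same under each of these scalings in all 3 comparisons.

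**Figure D4:**
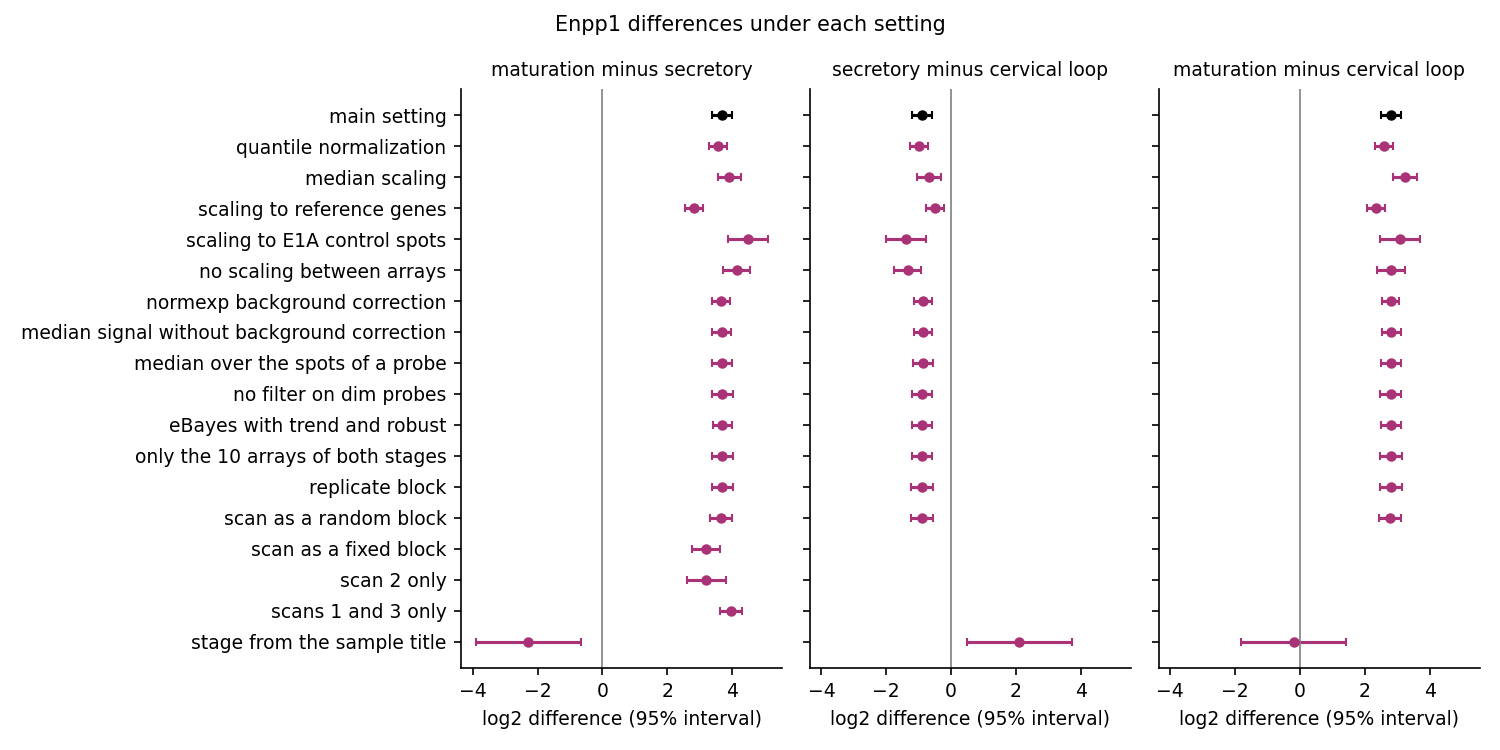
Enpp1 log2 difference with its 95% confidence interval in each stage comparison, under the main setting (black) and each alternative (purple). With stages from the tissue label every interval lies on the same side of 0, between 2.83 and 4.48, -1.40 and -0.49, and 2.35 and 3.25 for the point values, while stages from the sample titles turn the sign in all 3 panels.

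With stages taken from the sample titles, the Enpp1 values of a stage no longer lay together. The arrays titled maturation ran from 0.95 to 4.99, and the arrays titled secretory from 1.46 to 5.26. The maturation minus secretory difference was then -2.29 (limma, adjusted p = 0.183) and maturation minus cervical loop was -0.19 (limma, adjusted p = 0.862). Secretory minus cervical loop became 2.10 (limma, adjusted p = 0.035). On 7 arrays title and tissue label named the same stage. These were the cervical loop arrays, at 1.94 to 2.43, maturation replicate 1, at 4.99, and secretory replicate 1, at 1.46. They stood in the order given by the tissue label, with 1 array each for maturation and secretory. Beyond these arrays, every direction and every test given for Enpp1 rests on the tissue label.

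The genes whose pattern over the 15 arrays lay closest to that of Enpp1 were found from profiles centred on their own mean, with the root mean square of the differences from Enpp1 as distance. Among 36 other named genes the nearest in the main setting were Gdnf at 0.49, Ptk2b at 0.50, Hprt1 at 0.64, Ldha at 0.72 and Pgk1 at 0.94 log2 units. The median distance was 1.45 over those 36 genes and 1.74 over all features. Among all features the 5 nearest named genes ranked only 87, 90, 186, 285 and 694, in the same order. With the stage means removed, they lay 0.48, 0.41, 0.188, 0.14 and 0.17 from Enpp1. Enpp1 itself varied by 0.195 around its stage means, less than the distances of Gdnf and Ptk2b. The same 5 genes were the nearest when only the 3 stage means were used. Those means come from the same 15 arrays, so this is no independent check of the list. These distances describe the arrays, which share their tissue pieces and scans, and carry no test.

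Gdnf, a secreted neurotrophic factor, had a mean normalized log2 signal of -2.02 ± 0.63 in maturation, -5.12 ± 0.63 in the cervical loop and -5.95 ± 0.55 in the secretory stage (SD, n = 5). Its probe was well above background on only 2 of the 5 secretory arrays, so its secretory level is partly a bound and the size of its difference from that stage is uncertain. Its maturation minus secretory difference was 3.93 and its maturation minus cervical loop difference 3.10, both called under all 8 scaling and background settings. Their size moved with the setting, from 1.09 with normexp to 4.71 with the E1A scale for the first, and from 1.29 with normexp to 3.73 with quantile normalization for the second. Secretory minus cervical loop was -0.83 (limma, adjusted p = 0.0486), a call made in 3 of those 8 settings, with values from -1.33 to 0.20.

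Ptk2b, a calcium-responsive non-receptor tyrosine kinase, was higher in maturation than in secretory tissue by 3.14 and than in the cervical loop by 2.87. These values ranged from 1.96 to 3.92 and from 2.02 to 3.31 over the 8 settings, lowest with normexp, and were called in all of them. Its secretory minus cervical loop difference of -0.26 did not pass the test (limma, adjusted p = 0.438), nor in any of the 8 settings. Hprt1 was higher in maturation by 2.20 and 1.97, and its secretory minus cervical loop difference was -0.23 (limma, adjusted p = 0.106), called in 3 of 8 settings with values from -0.73 to 0.18. Its maturation differences were called in all 8, at 1.34 to 2.99 and 1.51 to 2.41.

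Ldha and Pgk1 were, with Gdnf, the genes of this set called lower in the secretory stage than in the cervical loop, by the same rule as Enpp1. Ldha differed by -0.89 in that comparison (limma, adjusted p = 6.5e-06), by 2.20 in maturation minus secretory and by 1.31 in maturation minus cervical loop. Pgk1 differed by -0.50 (limma, adjusted p = 0.00254), 1.57 and 1.08 in the same order. The call of Ldha held in 8 of 8 scaling and background settings and that of Pgk1 in 6 of 8. Their maturation minus secretory values, called in all 8, ranged from 1.33 to 2.98 and from 0.71 to 2.35.

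Unnamed probes made up 28410 of the 28863 features compared with Enpp1, and named genes 36. In the main setting 86 features of this far larger pool lay nearer than Gdnf. The nearest was the probe ASRNV20024437, at a distance of 0.085 log2 units, with no array differing by more than 0.16 after centring. Its normalized log2 signal was 5.57 ± 0.18 in maturation, 2.69 ± 0.23 in the cervical loop and 1.94 ± 0.19 in the secretory stage (SD, n = 5). Its differences were 3.63, -0.75 and 2.88, beside 3.70, -0.90 and 2.80 for Enpp1. Within stages, after the stage means were removed, its distance from Enpp1 was 0.060, while Enpp1 itself varied by 0.19 around its stage means. The probe was picked for its small distance over these same arrays, which includes the spread within stages. The within-stage value is therefore a description and no separate support for likeness. The files give this probe no gene, and its target was not analysed here.

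The next unnamed probes were ASRNV20012166 at a distance of 0.25 and ASRNV20024725 at 0.27. ASRNV20012166 differed by 3.47, -0.67 and 2.80 in maturation minus secretory, secretory minus cervical loop and maturation minus cervical loop. ASRNV20024725 differed by 3.68, -0.92 and 2.77 in the same order. It was a dim probe, at -1.34 ± 0.18 in maturation, -4.11 ± 0.38 in the cervical loop and -5.03 ± 0.36 in the secretory stage (SD, n = 5). It was well above background on 15 arrays, but the size of its differences depended on the background treatment. With normexp its maturation minus secretory difference was 1.52 and its maturation minus cervical loop difference 1.57, and without background correction 2.28 and 2.05. Their secretory minus cervical loop calls were made in 6 of 8 scaling and background settings each, and that of ASRNV20024725 ranged from -1.42 to 0.05.

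**Figure D5:**
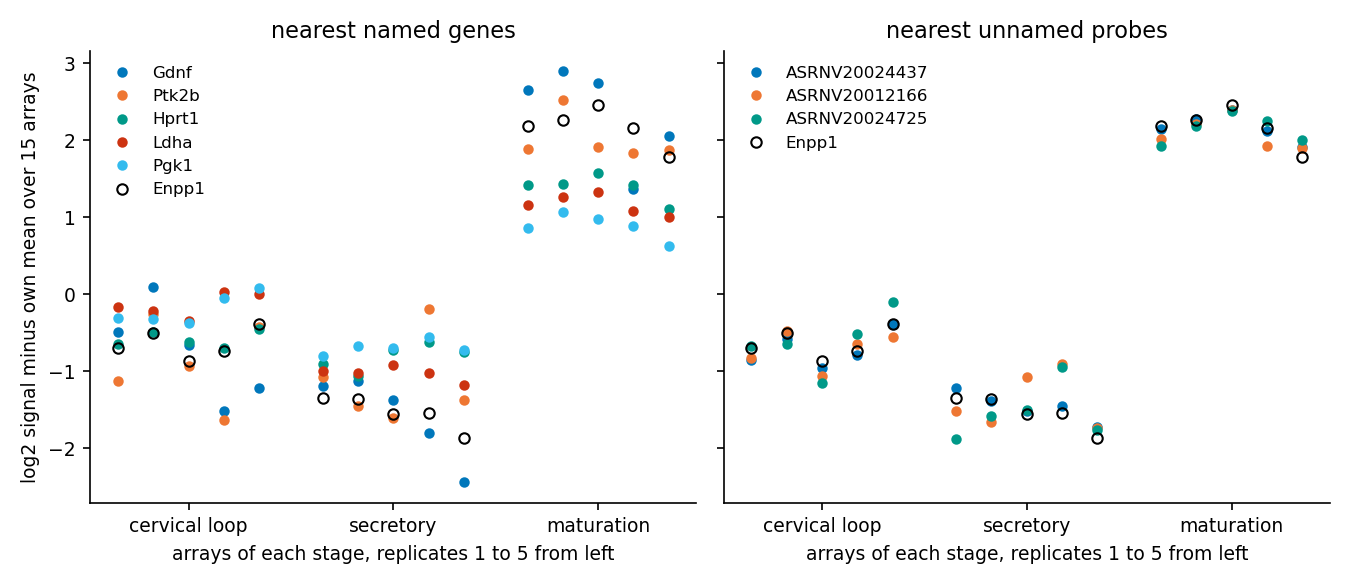
Normalized log2 signal of each array minus the feature's own mean over 15 arrays, for the 5 nearest named genes (left) and the 3 nearest unnamed probes (right), with Enpp1 as open circles. ASRNV20024437 stays within 0.16 of Enpp1 on every array, while named genes such as Pgk1, at a distance of 0.94, show the same order of stages over a smaller range.

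Of the other genes that set extracellular pyrophosphate and phosphate, none could be set beside Enpp1. In a list of 27 genes that make, move or break down pyrophosphate, extracellular nucleotides or phosphate, 1 was named on the array here, Enpp1 itself, and it was called in all 3 comparisons. None of 17 regulators of mineralization, 23 genes of enamel matrix and ion transport or 9 genes of insulin receptor signalling was among the named genes. The balance of pyrophosphate production, export by Ankh and hydrolysis by Alpl could therefore not be read from the named genes.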

How the data were processed

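The deposited files hold scanner output of 15 1-colour arrays, 5 per stage. The intensity values deposited by the authors are Agilent processed signals, and Agilent Feature Extraction 11.0.1.1 is named per the submitters' processing notes. Stage came from the tissue label. Flagged outlier and control spots were left out and the spots of a probe were averaged. The log2 of the deposited signal was taken and each array's 75th percentile subtracted. A feature was tested where at least 50% of its spots cleared the scanner's background criterion on each of the 5 arrays of 1 or more stages, which left 28864 features. A gene with several probes was represented by the brightest. Stages were compared with limma 3.58.1 (R 4.3.3) in 1 fit over all arrays, with Benjamini-Hochberg adjustment over all features and a threshold of 0.05. The number of arrays limits the precision. The fit was tested on simulated data: of 200 features changed among 28864, it called 63% for maturation minus secretory, 70% for secretory minus cervical loop and 67% for maturation minus cervical loop at a change of 1 log2 unit. In the same order it called 0.5%, 0% and 0% at 0.5 log2 units, and 93.5%, 95.5% and 94.5% at 2 log2 units. The simulation changed a far smaller share of features than the 58.1% to 63.2% called in the data. The adjustment is stricter where few features change, so these recovery rates do not carry over to the data.

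Probes were named through RefSeq accessions, which gave 38 genes by 39 probes. The 5 named genes and 3 unnamed probes nearest to Enpp1 were named by rule. The members and lists were chosen with earlier results of these data known. Replicate numbers stand in the sample titles. Deviations from stage means correlated between same-numbered maturation and secretory arrays at 0.11 to 0.29 for all 5 pairs, so these numbers were taken as pairs. For secretory and cervical loop arrays 1 of 5 pairs, and for maturation and cervical loop arrays 2 of 5, exceeded 0.1. Alternatives covered scaling, background correction, the filter, averaging, the moderated variance, the arrays in the fit, replicate and scan as blocks, the stage label and each array left out. Normexp used the median signal with an offset of 50. The authors' table of processed values was not used, and no sequence of the probe is printed.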

Additional observations from a re-analysis of the deposited data

How the results depend on the processing

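With stages from the tissue label, the 3 Enpp1 differences kept their direction under every alternative fit run. Scan 2 alone, where maturation has 1 array, gave 3.20 for maturation minus secretory and is not counted for the calls. The other fits kept the limma calls. Their adjusted p-values reached 1.73e-05 for maturation minus secretory, 0.00438 for secretory minus cervical loop and 6.7e-08 for maturation minus cervical loop. The 1.73e-05 came from scan as a fixed block, whose estimate rests on the same 1 maturation array of scan 2. Leaving out each array in turn gave 3.62 to 3.80, -0.95 to -0.81 and 2.73 to 2.90. With stages from the sample titles the signs turned, to -2.29 (limma, adjusted p = 0.183), 2.10 (limma, adjusted p = 0.035) and -0.19 (limma, adjusted p = 0.862). Only secretory minus cervical loop then passed the test. Of 28402 features, 0 were then called between maturation and secretory by limma, with 7184 at an unadjusted p under 0.05 and no other tool run, and 11599 between maturation and cervical loop, against 18256 with the tissue label. Scaling to the E1A probes gave 10560 for that comparison. Scan as a fixed block gave 8086 between maturation and secretory, against 17161. The cause was not tested. The replicate block left the Enpp1 differences at 3.70, -0.90 and 2.80 and changed no limma call of Enpp1, and the counts of features called were 17560, 17136 and 18483. Other Enpp1 probes were not run, since there was 1 probe, and scan as a fixed block could not be fitted for the cervical loop, which shared no scan with another stage. Exact sign flips within the 5 maturation and secretory pairs left 3.70 at p = 0.0625, the smallest they allow. Of the 8 features named as nearest to Enpp1, 6 were again nearest with quantile normalization and 7 with either other background treatment. The other scalings move all features alike and cannot change them. With normexp, Gdnf differed by 1.09, 0.20 and 1.29 in the 3 comparisons, beside 3.66, -0.86 and 2.80 for Enpp1. Its place as the nearest named gene is therefore given for the main setting only. All Enpp1 spots exceeded background, so signal over background does not limit its values.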

Other observations

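Of the genes named on the array, Slc28a2 and P2rx2 also handle or sense extracellular nucleosides and nucleotides. They were chosen after the array's contents were seen. Slc28a2, a sodium-coupled nucleoside transporter, averaged 1.54 ± 0.80 over the cervical loop arrays, 0.45 ± 0.19 over the secretory arrays and 1.33 ± 0.18 over the maturation arrays, in normalized log2 signal (SD, n = 5). It fell by 1.09 from cervical loop to secretory stage (limma, adjusted p = 0.00367), a call made in 8 of 8 scaling and background settings. It was higher in maturation than in the secretory stage by 0.88 (limma, adjusted p = 0.0138), called in 7 of 8 settings with values from 0.01 to 1.66. Maturation minus cervical loop was -0.21 (limma, adjusted p = 0.528). Over the 8 settings it ranged from -0.67 to 0.23 and was called in 1, with the reference genes as scale. P2rx2, an ATP-gated ion channel, passed the test in none of the 3 comparisons in the main setting: maturation minus secretory was 0.30 (limma, adjusted p = 0.376), secretory minus cervical loop -0.47 (adjusted p = 0.167) and maturation minus cervical loop -0.17 (adjusted p = 0.613). In the same order, it was called in 1, 2 and 0 of the 8 settings. Its values ranged from -0.57 to 1.08, -0.97 to -0.06 and -0.63 to 0.27.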
